A study of Homo sapiens with 9 samples.

Results

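The response shared by both forms of RAI2 was taken from 6 of 9 bead arrays, namely the 3 arrays of MDA-MB231 cells that received RAI2 and the 3 of cells that received RAI2-4A, set together against the 3 arrays of cells with the empty vector. MDA-MB231 is an established human breast cancer line that lacks the oestrogen and progesterone receptors and has a mesenchymal character. All 3 groups carried a retroviral vector made in φNX-ampho packaging cells and were selected in puromycin at 2 µg/ml for 4 days, so the vector cells share the transduction and the drug with the others. Total RNA (500 ng per sample) was amplified and labelled with biotin. The labels do not explain what 4A stands for, and the form is not interpreted here. They also leave unsaid if the arrays of a group came from independently transduced cultures, and the p-values therefore cover the spread among these 9 arrays alone, part of which may be technical. In bulk RNA of this kind, fewer cells of one kind and less RNA per cell cannot be told apart.

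RAI2 was named for its induction by retinoic acid. The protein binds the corepressors CtBP1 and CtBP2, which do not recognise DNA themselves but are brought to promoters by partner proteins, the ZEB factors among them, and carry histone-modifying enzymes with them. In breast cancer RAI2 is known mainly from luminal, hormone receptor-positive tumours.

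Each array gave 1 intensity per probe for 47323 probes, of which 30111 carried exactly 1 gene symbol, for 20045 genes. Each gene was represented by its brightest probe, and 12414 genes had that probe above background on at least 3 arrays. Of the 9 markers taken as high in this line, 7 were above background on every array. ZEB1 and SPARC were each above it on fewer than 3 of the 9 arrays, too few to compare the groups. For ZEB1 none of these was a RAI2 array, and for SPARC none was a RAI2-4A or vector array. Of 8 markers taken as low or absent, ESR1, PGR, GRHL2 and ESRP1 were above it on none, but KRT19 and EPCAM on every array. GATA3 and CDH1 were above it on every RAI2 array and on at least some arrays of each other group. Of the leukocyte markers, CD3E, LYZ and PTPRC were above it on none, but CD14 and HLA-DRA on every array. Replicate 2 of RAI2, replicate 2 of RAI2-4A and replicate 1 of vector deviated from their groups in the same direction (residual correlations of 0.43, 0.44 and 0.55 between the pairs), and counts are therefore also given without these 3 arrays.

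The introduced gene was measured first. The single RAI2 probe (ILMN_1760574) read 632, 602.5 and 559 on the RAI2 arrays, 1063, 955 and 1158 on the RAI2-4A arrays, and 88.3, 86.3 and 95.8 on the vector arrays. All 6 arrays of the transduced forms lay far above the vector arrays, on which the probe was not above background. On background-corrected values the transcript was at least 9.67-fold higher in both forms together than in vector (limma, adjusted p = 7.52e-10). For this bound and those below, each vector array was given the probe's own value or the lowest value of any probe above background, whichever was higher, before the mean log2 values were compared. It is a bound on the corrected scale only, since the deposited intensities still hold background and their means gave a smaller ratio of 9.19. On the corrected scale it was at least 7.21-fold in RAI2 cells and at least 13.0-fold in RAI2-4A cells, beside ratios of 6.63 and 11.7 between the deposited means. RAI2-4A cells thus carried more of the transcript than RAI2 cells, with a log2 difference of -0.85 for RAI2 minus RAI2-4A (95% interval -1.11 to -0.59, adjusted p = 0.0104).

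Beyond RAI2 itself the shared response was small. With the mean of both forms set against vector, 11 genes passed an adjusted p of 0.05 (limma, Benjamini-Hochberg over all 30111 probes), which is 0.0549% of the genes tested. The 8 higher genes (0.0399% of genes) were RAI2, DEFB103A, LRIG1, TGFBI, CCL2, IGSF3, SERPINA1 and NCK2, and the 3 lower genes (0.0150%) were TENM3, ADM and RASD1. Over probes the count was 14, or 0.0465%. Changes of 2-fold or more were seen for 4 of the 11, namely RAI2, DEFB103A, LRIG1 and TGFBI. The 6 arrays of both forms did not overlap the 3 vector arrays for any of the 11. The same separation held for 271 of all genes in the upward direction (1.35%) and for 197 in the downward direction (0.983%). An unadjusted p under 0.05 was reached by 904 genes, or 4.51%, of which 529 were higher (2.64%) and 375 lower (1.87%). The plot of intensities by array shows how each of the 11 genes was separated.

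**Figure D1:**
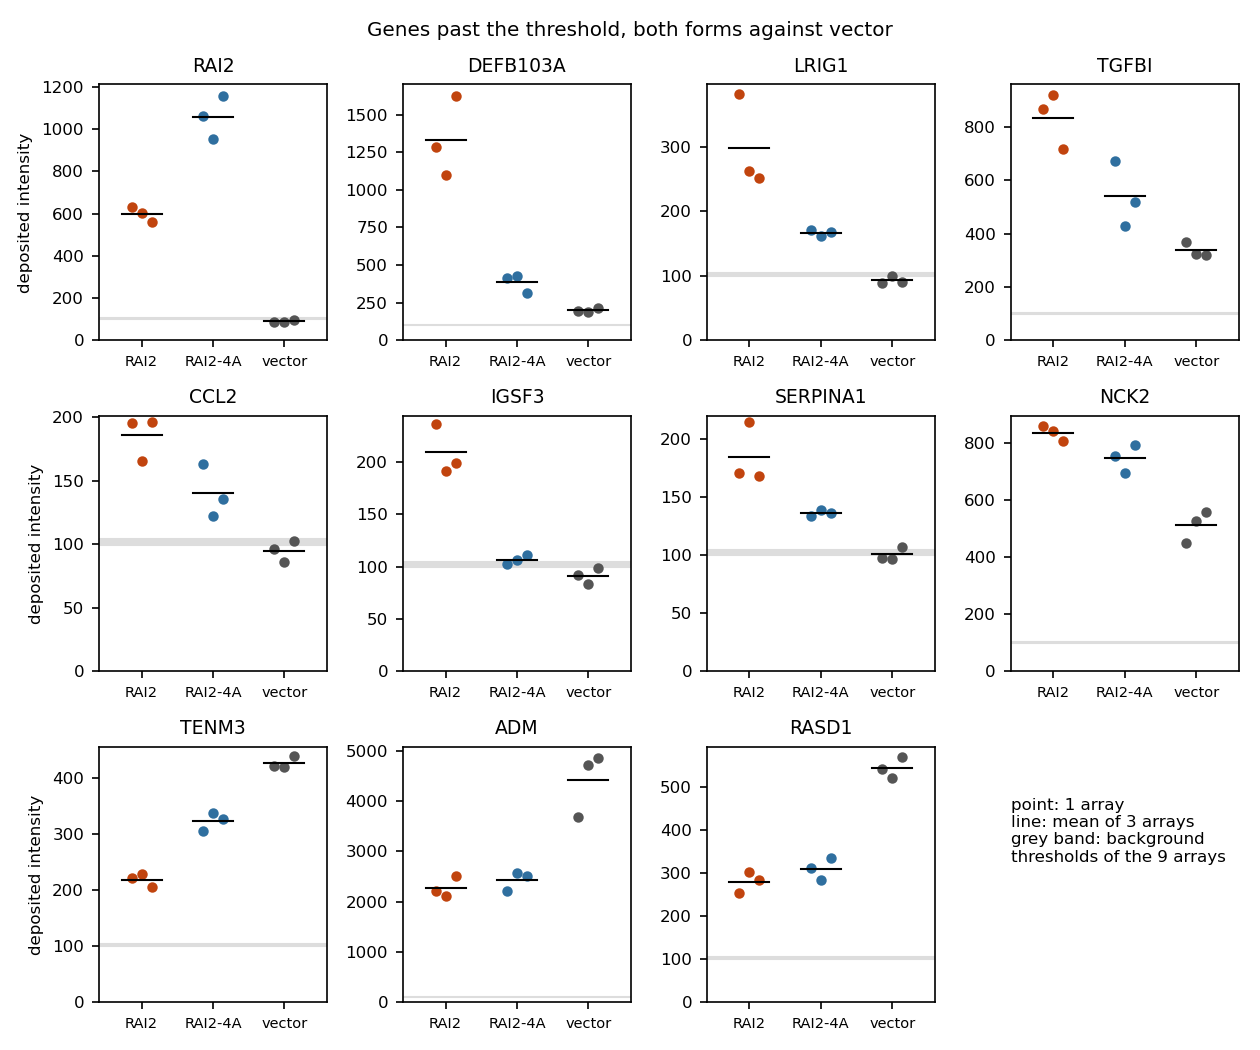
Deposited intensity (linear scale) on each array for the 11 genes past the threshold, with RAI2, RAI2-4A and vector from left to right (points, arrays; black lines, means of 3 arrays; grey band, background thresholds of the 9 arrays). The vector arrays of RAI2, LRIG1, CCL2 and IGSF3 lie at or under the band, and for ADM and RASD1 the arrays of the 2 forms lie together below vector.

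Taking the 6 arrays strictly as 1 group, so that a difference between the forms counts as spread, left 3 genes, again 0.0150% of those tested. These were RAI2, ADM and RASD1 (limma, adjusted p = 2.62e-06 for RAI2 and 0.00349 for each of the others). ADM and RASD1 were the endogenous genes among them.

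ADM encodes adrenomedullin, a secreted vasodilator peptide whose transcript is known to rise in hypoxia. It read 2208, 2113 and 2506 on the RAI2 arrays, 2218, 2566.5 and 2518 on the RAI2-4A arrays, and 3693, 4723 and 4849 on the vector arrays. Every array of either form lay below the lowest vector array, which was replicate 1, and the 2 forms overlapped each other. In both forms together ADM fell by 0.91 on the log2 scale, with an SE of 0.10 (limma, adjusted p = 0.00289). It differed by -0.96 (SE 0.12) in RAI2 cells and -0.86 (SE 0.12) in RAI2-4A cells, and RAI2 minus RAI2-4A was -0.10 (95% interval -0.35 to 0.16). The call was lost without vector replicate 2 (adjusted p = 0.0512).

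RASD1 encodes a small GTPase of the Ras family first described as induced by dexamethasone. Its intensities were 253, 302 and 284 in RAI2 cells, 312, 284 and 335 in RAI2-4A cells, and 541, 519.7 and 570.0 in vector cells. The vector arrays stood well apart from all 6 others, which overlapped among themselves. RASD1 fell by 0.94 on the log2 scale in both forms together, with an SE of 0.11 (limma, adjusted p = 0.00289). The gene differed by -1.02 (SE 0.12) in RAI2 cells and by -0.86 (SE 0.12) in RAI2-4A cells, with -0.16 for RAI2 minus RAI2-4A (95% interval -0.42 to 0.10). No single array decided this call, the highest adjusted p with 1 array left out being 0.0388.

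The promoters of ADM and RASD1 are shown because these endogenous genes passed with the 6 arrays as 1 group. Each line gives the 250 bases before the annotated start in RefSeq (GRCh38.p14), on the strand of the gene, with motif matches in capitals. ADM lies at chr11:10304823-10305072 on the plus strand, and RASD1 at chr17:17496396-17496645 on the minus strand.
ADM: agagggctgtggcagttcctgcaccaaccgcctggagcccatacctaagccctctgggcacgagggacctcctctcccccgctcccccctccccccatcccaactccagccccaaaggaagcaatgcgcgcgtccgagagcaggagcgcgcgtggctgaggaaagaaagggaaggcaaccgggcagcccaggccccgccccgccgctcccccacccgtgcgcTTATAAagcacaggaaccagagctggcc
RASD1: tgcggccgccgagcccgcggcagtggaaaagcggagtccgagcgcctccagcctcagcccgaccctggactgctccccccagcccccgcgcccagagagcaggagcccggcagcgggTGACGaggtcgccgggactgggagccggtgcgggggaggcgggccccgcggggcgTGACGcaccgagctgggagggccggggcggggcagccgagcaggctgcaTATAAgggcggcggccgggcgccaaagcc

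The letters searched on both strands were TATAA (TATA box), CACCTG (the E-box bound by ZEB proteins), TGANTCA (AP-1), TGACG (part of the cAMP response element) and ACGTG (the core of hypoxia response elements), the last pair of which can overlap. ADM held TATAA on each strand, at -28 and -27 from the start and overlapping. RASD1 held it at -29 and TGACG at -133 and -78. Neither held the E-box, AP-1 or hypoxia letters in this window. Of 35116 promoters of the same length, TATAA was in 18.9%, CACCTG in 17.5%, TGANTCA in 6.57%, TGACG in 21.2% and ACGTG in 18.5%. The promoters of TGFBI and NCK2, the other called genes with a single start in the table, held none of the 5 motifs. The motifs were chosen with the results known, and a match is a description of the letters only.

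DEFB103A encodes beta-defensin 3, an antimicrobial peptide of epithelia. Its brightest probe (ILMN_1684308) read 1284, 1095.5 and 1623 on the RAI2 arrays, 414, 428 and 312 on the RAI2-4A arrays, and 198, 188 and 218 on the vector arrays. The 3 groups did not overlap at all, with RAI2-4A between RAI2 and vector. The mean rise over both forms was 1.93 on the log2 scale, with an SE of 0.14 (limma, adjusted p = 5.08e-05). This mean joined 2.86 (SE 0.16) in RAI2 cells and 1.01 (SE 0.16, adjusted p = 0.0835) in RAI2-4A cells. A second probe (ILMN_1714587) gave a mean of 1.83 (SE 0.14, adjusted p = 5.16e-05). Probes for DEFB103A may not separate it from DEFB103B, whose sequence is almost the same, so the gene assignment is uncertain. The DEFB103B probe, dim in every group, differed by 0.37 (SE 0.10, adjusted p = 0.705).

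LRIG1 is a transmembrane protein that promotes the degradation of ERBB receptors. On its brightest probe (ILMN_2128795) it read 382, 262 and 252 in RAI2 cells, 171, 161 and 168 in RAI2-4A cells, and 89.5, 99.2 and 90.1 in vector cells, where it was not above background on any array. The groups were fully ordered, with all RAI2 arrays above all RAI2-4A arrays and these above vector. On background-corrected values LRIG1 was at least 2.47-fold higher in both forms together (limma, adjusted p = 3.94e-04), at least 3.39-fold in RAI2 cells and at least 1.80-fold in RAI2-4A cells. The ratios of the deposited means were 3.21 for RAI2 and 1.79 for RAI2-4A. Its second probe (ILMN_1707342), above background on 2 of 3 vector arrays, rose by 0.97 log2 units (SE 0.14, adjusted p = 0.0283). DEFB103A and LRIG1 kept their calls when any 1 array was removed, but not with the 6 arrays as 1 group (adjusted p = 0.645 and 0.140).

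TGFBI, a matrix protein that binds collagens and integrins and is induced by TGF-beta, read 867, 919 and 718 on the RAI2 arrays, 672, 428 and 521 on the RAI2-4A arrays, and 369.9, 325 and 319 on the vector arrays. All 9 arrays were above background, the forms lay above vector throughout, and every RAI2 array exceeded every RAI2-4A array. The rise of TGFBI in both forms was 1.03 on the log2 scale, with an SE of 0.14 (limma, adjusted p = 0.0167). It was 1.36 (SE 0.16) in RAI2 cells and 0.69 (SE 0.16) in RAI2-4A cells.

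CCL2, the chemokine that draws monocytes, read 196, 166 and 196 in RAI2 cells, 163, 122 and 135 in RAI2-4A cells, and 96.5, 85.8 and 102 in vector cells. It was above background on all 6 arrays of the forms and on none of vector. On background-corrected values CCL2 was at least 1.72-fold higher in both forms together (limma, adjusted p = 0.0168), at least 2.03-fold in RAI2 cells and at least 1.46-fold in RAI2-4A cells. The ratios of the deposited means were 1.96 for RAI2 and 1.48 for RAI2-4A. SERPINA1, which encodes the elastase inhibitor alpha-1 antitrypsin, read 171, 214 and 168 in RAI2 cells, 134, 139 and 136 in RAI2-4A cells, and 97.8, 97.0 and 107 in vector cells. Its mean rise over both forms was 0.79 on the log2 scale, with an SE of 0.11 (limma, adjusted p = 0.0226), and the probe exceeded background on 1 vector array. The rise of SERPINA1 was 1.04 (SE 0.13) in RAI2 cells and 0.54 (SE 0.13) in RAI2-4A cells. Its other probes gave 0.65 (above background on 7 of 9 arrays), and 0.03 and -0.21 (above background on 0 arrays each).

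Among cell surface and signalling proteins, IGSF3, a membrane protein of the immunoglobulin superfamily, read 236, 191 and 199 on the RAI2 arrays, 102, 106 and 111 on the RAI2-4A arrays, and 92.2, 83.6 and 98.3 on the vector arrays. The RAI2-4A arrays lay just above the vector arrays, and only 2 of them were above background. On background-corrected values IGSF3 was at least 1.56-fold higher in both forms together (limma, adjusted p = 0.0130), at least 2.32-fold in RAI2 cells and at least 1.04-fold in RAI2-4A cells. The ratios of the deposited means were 2.28 for RAI2 and 1.17 for RAI2-4A. Its second probe, above background on 1 array, gave 0.30.

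NCK2, an adaptor that links receptor tyrosine kinases to the actin cytoskeleton, read 857, 842 and 806 in RAI2 cells, 753, 695 and 790.2 in RAI2-4A cells, and 451, 526 and 556 in vector cells. The vector arrays were the lowest and the forms lay close together. NCK2 was 0.66 higher on the log2 scale, with an SE of 0.10 (limma, adjusted p = 0.0338), while its other probe, above background on 1 array, gave -0.14.

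TENM3 encodes a teneurin, a transmembrane protein that mediates adhesion between cells. Its intensities were 222, 229 and 205 in RAI2 cells, 305, 337 and 326 in RAI2-4A cells, and 421, 419.5 and 438 in vector cells. The 3 groups were again fully separated, with RAI2-4A in between. In both forms together TENM3 fell by 0.74 on the log2 scale, with an SE of 0.10 (limma, adjusted p = 0.0130). It differed by -1.05 (SE 0.11) in RAI2 cells and -0.43 (SE 0.11) in RAI2-4A cells.

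The calls of these 6 genes were lost under more settings than those above. Leaving out 1 array ended the call of IGSF3 for 2 arrays (RAI2-4A replicate 3 and vector replicate 2, highest adjusted p = 0.145) and that of TENM3 for 4 (RAI2 replicate 3, RAI2-4A replicate 3 and vector replicates 2 and 3, highest 0.125). It ended that of TGFBI for 5 (RAI2 replicates 1 and 2, RAI2-4A replicate 3 and vector replicates 2 and 3, highest 0.157), and that of CCL2 for 5 (RAI2 replicates 1 and 3, RAI2-4A replicate 3 and vector replicates 2 and 3, highest 0.185). SERPINA1 was lost for 6 arrays, all but RAI2 replicate 2, RAI2-4A replicate 2 and vector replicate 1 (highest 0.214), and NCK2 for 8, all but RAI2-4A replicate 2 (highest 0.186). With the probes of a gene averaged, SERPINA1 differed by 0.31 (adjusted p = 0.416) and NCK2 by 0.26 (adjusted p = 0.896), and neither passed. With the 6 arrays as 1 group none of the 6 passed, with adjusted p = 0.344 for TGFBI, 0.229 for CCL2, 0.977 for IGSF3, 0.344 for SERPINA1, 0.112 for NCK2 and 0.645 for TENM3.

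**Figure D2:**
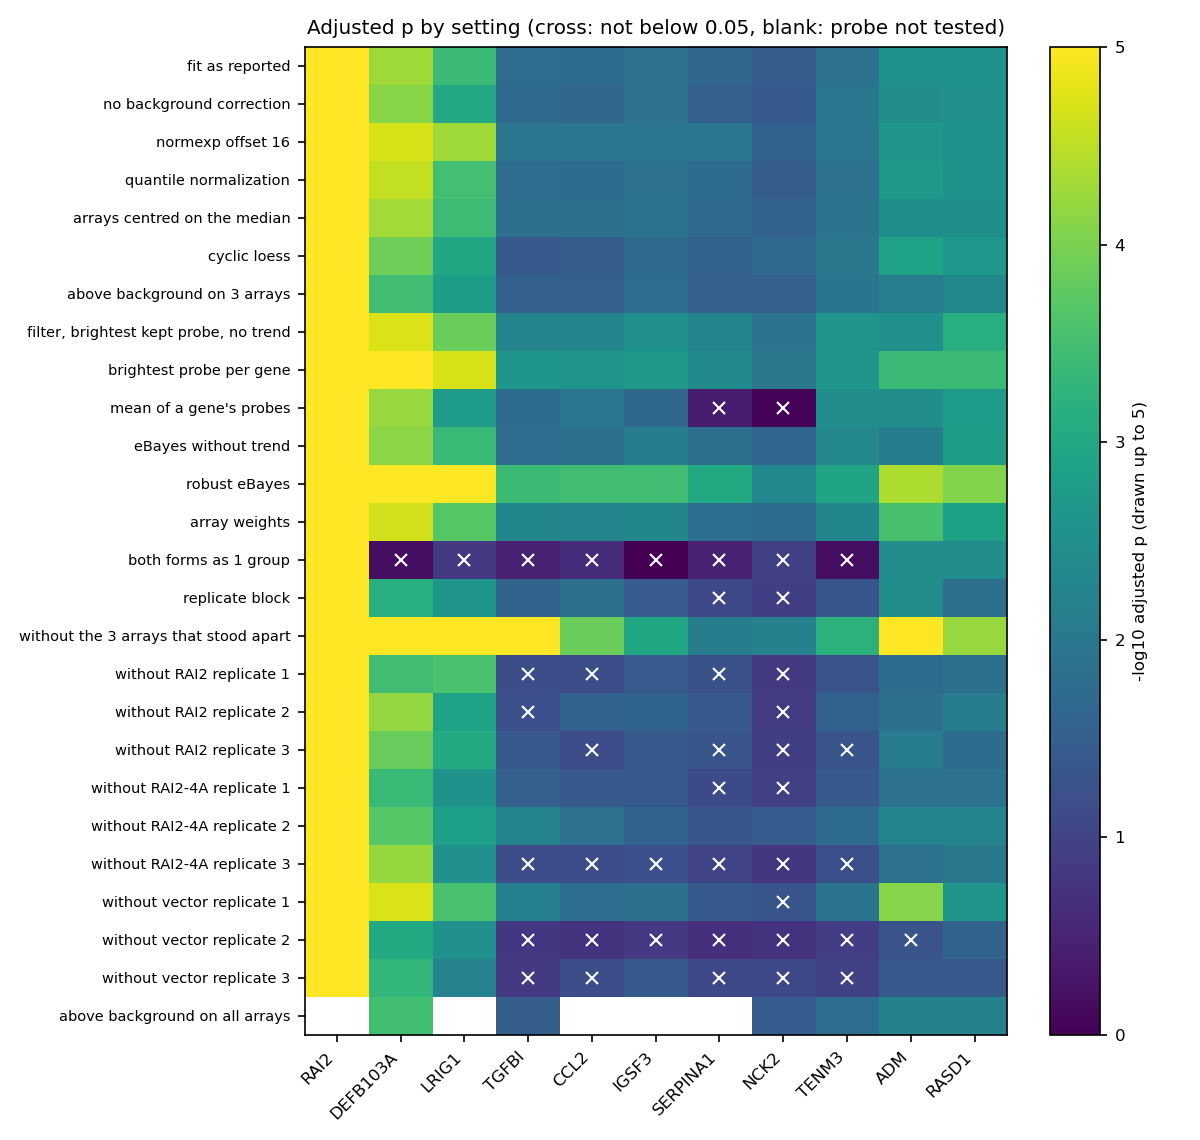
Adjusted p of the 11 genes (columns) under each setting (lines), coloured by -log10 up to 5, with a cross where it was not below 0.05 and a blank where the probe was not tested. RAI2, DEFB103A, LRIG1, ADM and RASD1 carry the fewest crosses, and the fit with both forms as 1 group leaves RAI2, ADM and RASD1 without one.

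Both forms were also set against vector one at a time. RAI2 minus vector and RAI2-4A minus vector use the same vector arrays, so the differences of both forms from vector are given side by side, and the forms were compared directly with each other, without vector. All 11 genes passed in RAI2 minus vector, a comparison in which 31 genes passed (0.155%). In RAI2-4A minus vector, in which 9 genes passed (0.0449%), 4 of the 11 did so, namely RAI2 (adjusted p = 1.12e-09), LRIG1 (0.0499), ADM (0.0233) and RASD1 (0.0268). For all 10 called genes other than RAI2, the RAI2-4A mean lay closer to vector than the RAI2 mean. The share of all genes with this order was not taken. RAI2-4A cells carried more of the introduced transcript, and the cause of the order was not tested.

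**Figure D3:**
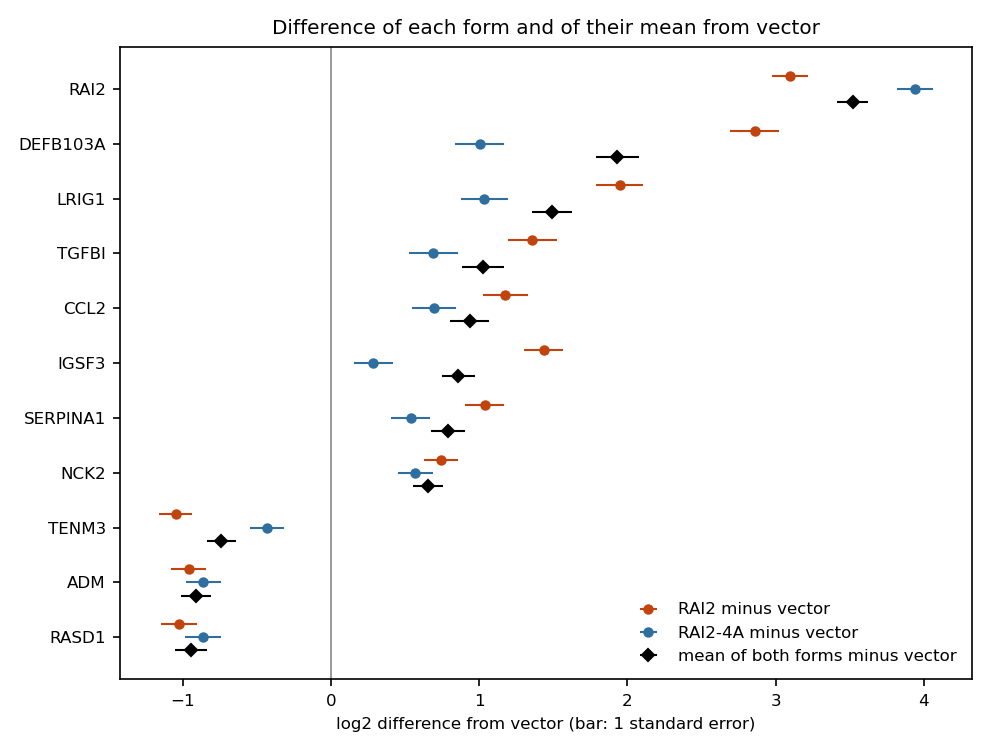
Log2 difference from vector for RAI2 (orange), RAI2-4A (blue) and the mean of both (black diamonds) for the 11 genes, with bars of 1 standard error. The blue point lies nearer to 0 than the orange one for every gene but RAI2, and the points of ADM, RASD1 and NCK2 lie closest together.

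Between the forms 33 of all genes differed (0.165%), and 4 of these were among the 11. For DEFB103A, RAI2 minus RAI2-4A was 1.85 log2 units (SE 0.16, limma, adjusted p = 2.02e-04), and for IGSF3 it was 1.15 (95% interval 0.87 to 1.43, adjusted p = 0.00248). For LRIG1 it was 0.91 (0.57 to 1.25, adjusted p = 0.0477) on the brightest probe, and 0.78 (0.42 to 1.14, adjusted p = 0.169) on the second. RAI2 itself was the fourth, in the opposite direction. For the other 7 the difference did not pass, which does not show that the forms act alike: the intervals were 0.32 to 1.02 for TGFBI, 0.16 to 0.81 for CCL2, 0.22 to 0.78 for SERPINA1, -0.08 to 0.42 for NCK2 and -0.86 to -0.38 for TENM3, beside those of ADM and RASD1 above.

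A mean over both forms can also pass where only 1 form moved. The gene LYPD5, which encodes a membrane-anchored protein of the LY6 family, was such a case. Its probe ILMN_2322597 read 141, 124 and 171 in RAI2 cells, 966.5, 1224 and 885 in RAI2-4A cells, and 139.7, 147 and 216 in vector cells. The RAI2 arrays overlapped vector and the RAI2-4A arrays lay far above both. The mean of both forms nevertheless passed on this probe (1.29, SE 0.17, limma, adjusted p = 0.0133), with -0.23 in RAI2 cells and 2.82 in RAI2-4A cells. On its brightest probe, which counts for the gene here, the mean was 1.10 (adjusted p = 0.175), and LYPD5 is therefore not among the 11. The zinc finger gene ZNF404 had values of -0.11 in RAI2 cells and 1.46 in RAI2-4A cells, with a mean of 0.67 (adjusted p = 0.0889). Among the 11, IGSF3 also rested mainly on 1 form, with 1.44 in RAI2 cells and 0.29 (SE 0.13, limma, adjusted p = 0.995) in RAI2-4A cells.

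**Figure D4:**
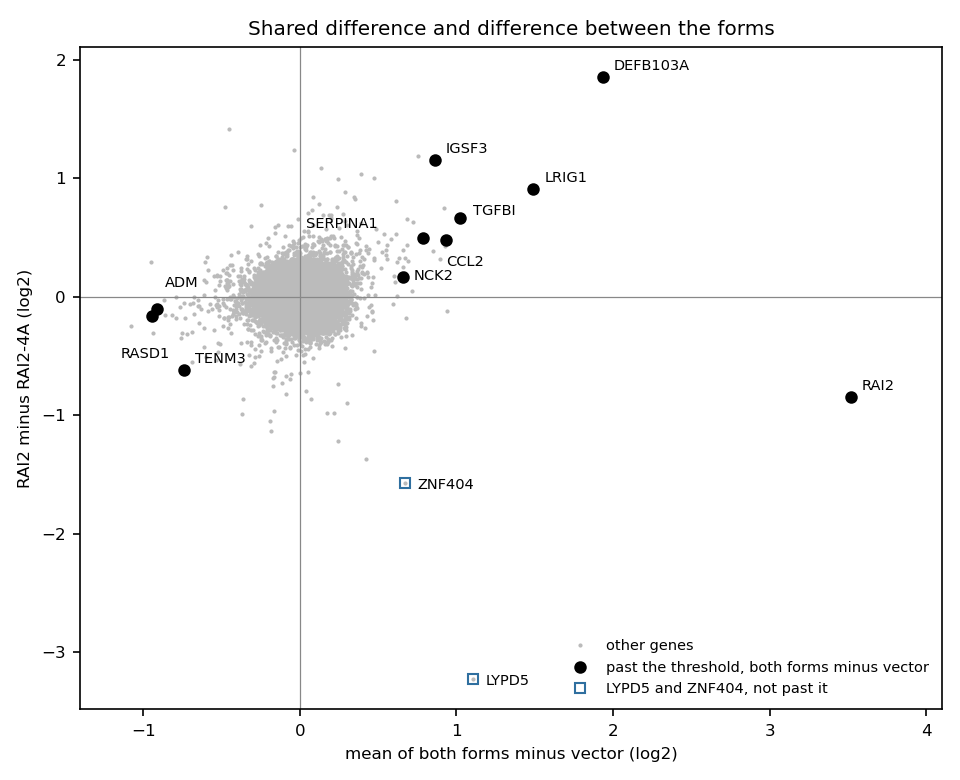
Mean of both forms minus vector (horizontal, log2) against RAI2 minus RAI2-4A (vertical, log2) for each gene by its brightest probe (black, the 11 genes past the threshold; open squares, LYPD5 and ZNF404; grey, all other genes). ADM, RASD1 and NCK2 lie near the horizontal line at 0, DEFB103A lies at 1.93 and 1.85, and LYPD5 at 1.10 and -3.22.

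The genes around RAI2 were read next, in lists that describe pathways and cell types. The median difference over all genes was 0.01 log2 units, and few members of any list passed, so the lists are given as counts and medians beside that of all genes. Lists and members were chosen with earlier results of these data known. A count above the share of all genes may therefore come from that choice, and no list was tested as a set. Of 25 genes of the CtBP corepressor complex on the array, 1 rose (RAI2), none fell and 24 did not pass (median 0.03). The corepressor CTBP1 differed by -0.00 (SE 0.09) and CTBP2 by -0.05 (SE 0.15). Of 20 genes reported to be repressed through CtBP none passed (median 0.07), with differences of 0.34 (SE 0.10) for CDKN1A, which inhibits the cell cycle, and of 0.29 (SE 0.11) for the pro-apoptotic PMAIP1. At an unadjusted p under 0.05, 3 of the 20 were higher and none lower, against 2.64% and 1.87% of all genes. Among 28 p53 targets and BCL2 family genes, which share CDKN1A and PMAIP1, none passed (median 0.02).

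Inflammatory genes were read as 1 list of regulators and 1 of interferon-stimulated genes. Of 38 NF-kB regulators, chemokines and cytokines, CCL2 alone rose (1 gene), and the other 37 did not pass, with a median of 0.14 beside 0.01 for all genes. At an unadjusted p under 0.05, 9 were higher and none lower, against 2.64% and 1.87% of all genes. The cytokine IL24 read 354, 274.5 and 266 in RAI2 cells, 246, 206 and 272 in RAI2-4A cells, and 154, 182 and 192 in vector cells, without overlap between the forms and vector, and differed by 0.67 (SE 0.14, limma, adjusted p = 0.235). For SAA1, an acute-phase gene, the difference was 0.85 (SE 0.19, adjusted p = 0.385), with RAI2-4A replicate 2 within the vector arrays. Of 38 interferon-stimulated genes none passed (median 0.07), with 4 higher and none lower at an unadjusted p under 0.05 (2.64% and 1.87% of all genes). The antiviral GTPase MX1 differed by 0.72 (SE 0.18) and the RNA sensor IFIH1 by 0.44 (SE 0.17). Of 20 epithelial antimicrobial peptides 1 rose (DEFB103A), and 19 did not pass (median 0.07), with only 5 of the 20 above background on 3 or more arrays.

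Antigen presentation held no call. Of 23 MHC class I and II genes none passed (median 0.12), while 7 were higher and 1 lower at an unadjusted p under 0.05 (2.64% and 1.87% of all genes), and all 6 arrays of the forms lay above vector for 4, beside 1.35% of all genes. HLA-DRA, a class II chain, read 424, 316.5 and 264 in RAI2 cells, 547, 248 and 333.5 in RAI2-4A cells, and 214, 191 and 166 in vector cells. The forms did not overlap vector, but their own spread was wide, and the difference of 0.94 (SE 0.22) had an adjusted p of 0.521. HLA-DPA1 differed by 0.68 (SE 0.13, adjusted p = 0.155) and HLA-B by 0.62 (SE 0.14, adjusted p = 0.334). HLA-DRA and CD14, which differed by 0.61 (SE 0.13, adjusted p = 0.235), are also leukocyte markers. The summed intensity of the 6 leukocyte markers on the array ranged from 869 to 1069 on the RAI2 arrays, from 757 to 1127 on the RAI2-4A arrays and from 663 to 736 on the vector arrays, with CD3E, LYZ and PTPRC above background on none. The part of other cells in these values was not tested.

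**Figure D5:**
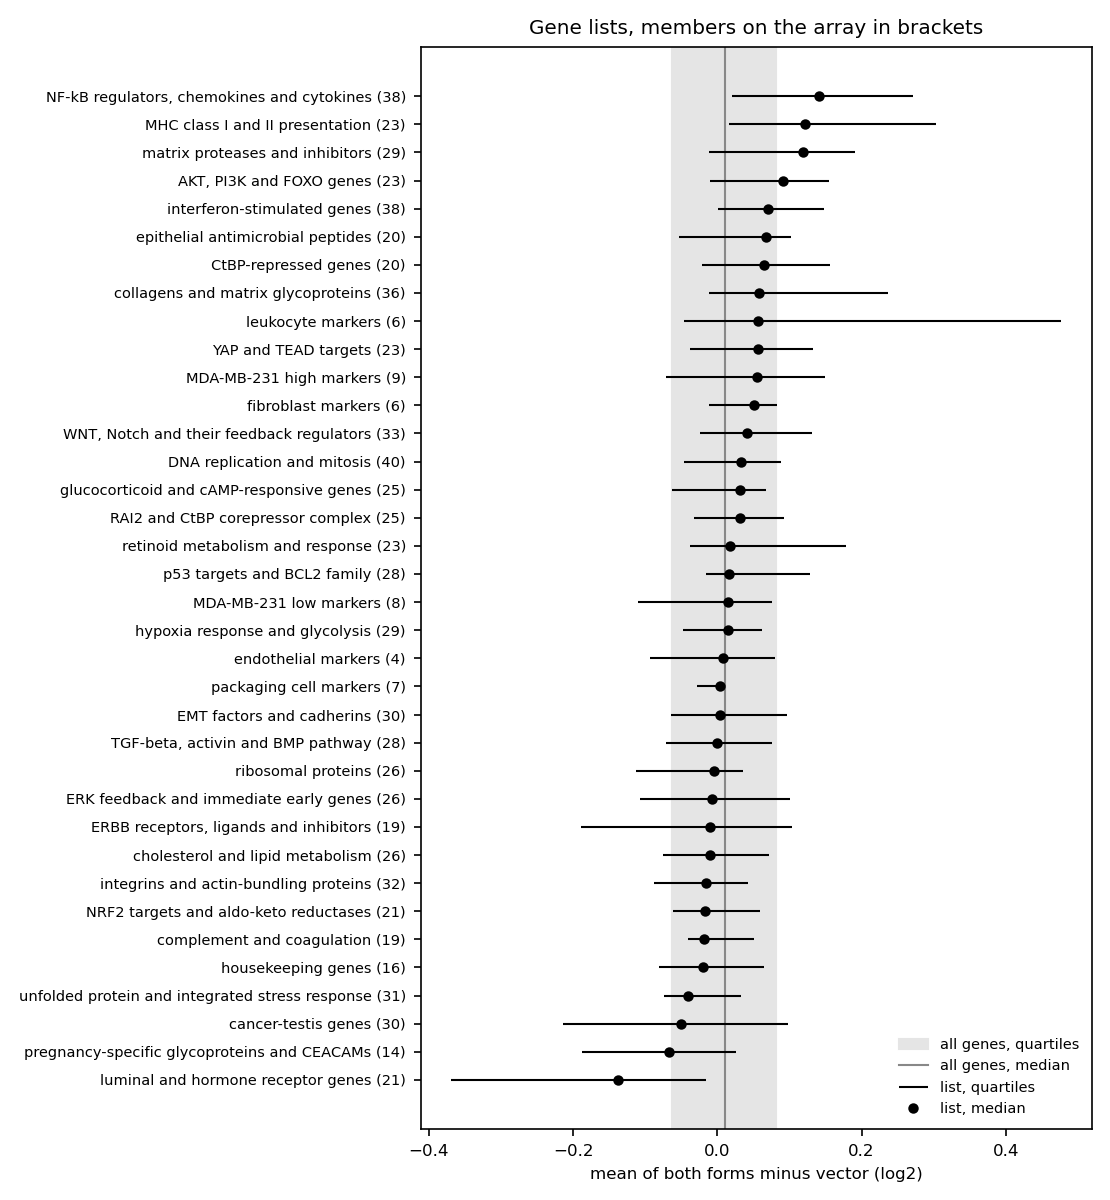
Median (points) and quartiles (lines) of the difference of both forms from vector, in log2 units, for the 36 gene lists, with the quartiles of all genes as a grey band and their median as a grey line. Over all members on the array, including those at background, NF-kB genes lie highest with a median of 0.14, and luminal and hormone receptor genes lie lowest with -0.14.

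Matrix genes held 1 call and several members below the unadjusted threshold. Of 36 collagens and matrix glycoproteins 1 rose (TGFBI), none fell and 35 did not pass (median 0.06), with 10 higher and 1 lower at an unadjusted p under 0.05, against 2.64% and 1.87% of all genes. The matrix glycoprotein THBS1 read 5607, 4439 and 3957 in RAI2 cells, 4069, 3165 and 3376 in RAI2-4A cells, and 2389.9, 2557 and 2756 in vector cells. The forms lay above vector on every array, with a difference of 0.66 (SE 0.11, limma, adjusted p = 0.0889). Of 29 matrix proteases and inhibitors none passed (median 0.12). At an unadjusted p under 0.05, 6 were higher and 1 lower, against 2.64% and 1.87% of all genes. All 6 arrays of the forms lay above vector for 4 of the 29 and below it for none, beside 1.35% and 0.983% of all genes. The plasminogen activator PLAT differed by 0.40 (SE 0.12) and the urokinase receptor PLAUR by 0.35 (SE 0.10). Of 28 genes of the TGF-beta, activin and BMP pathway 1 rose (TGFBI), and 27 did not pass (median -0.00). Of 32 integrins and actin-bundling proteins none passed (median -0.02). The actin bundler LCP1 differed by 0.75 (SE 0.12, adjusted p = 0.0518), with 1.35 in RAI2 cells and 0.16 in RAI2-4A cells, and the collagen receptor ITGA2 by -0.28 (SE 0.09).

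Of 21 luminal and hormone receptor genes none passed, with a median of -0.14, or -0.17 over the 14 above background on at least 3 arrays. At an unadjusted p under 0.05, 6 were lower and none higher, against 1.87% and 2.64% of all genes. All 6 arrays of the forms lay below vector for 4 of the 21, beside 0.983% of all genes. AGR2, a disulfide isomerase of luminal cells, read 382, 430.1 and 429.9 in RAI2 cells, 403, 272.5 and 366 in RAI2-4A cells, and 541, 605 and 531 in vector cells, a difference of -0.60 (SE 0.13, limma, adjusted p = 0.303). The trafficking GTPase RAB17 differed by -0.60 (SE 0.15, adjusted p = 0.589) and the luminal transcription factor SPDEF by -0.52 (SE 0.14, adjusted p = 0.712). Of 30 EMT factors and cadherins none passed (median 0.00), and the mesenchymal cadherin CDH11 differed by 0.35 (SE 0.10) and the transcription factor SNAI2 by 0.43 (SE 0.13).

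In growth factor signalling, 1 of 19 ERBB receptors, ligands and inhibitors rose (LRIG1), none fell and 18 did not pass (median -0.01). The ERBB ligand NRG1 differed by -0.34 (SE 0.09, adjusted p = 0.749). Of 26 ERK feedback and immediate early genes none passed (median -0.01), and the ERK pathway inhibitor SPRY1 differed by -0.29 (SE 0.08) and the transcription factor KLF2 by -0.23 (SE 0.09). None of 23 AKT, PI3K and FOXO genes passed (median 0.09). The phosphatase subunit PPP2R2C differed by -0.48 (SE 0.10), with -0.10 in RAI2 cells and -0.86 in RAI2-4A cells, and the phosphatase INPP4B by 0.32 (SE 0.12).

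ADM and RASD1 were the only calls in their lists. Of 29 hypoxia and glycolysis genes 1 fell (ADM), none rose and 28 did not pass, with a median of 0.01 and no further member below an unadjusted p of 0.05. Of 25 glucocorticoid and cAMP-responsive genes 1 fell (RASD1), none rose and 24 did not pass (median 0.03), and the transcription factor CEBPD differed by 0.46 (SE 0.15, adjusted p = 0.986). Of 23 genes of retinoid metabolism and response none passed (median 0.02), and the transglutaminase TGM2 differed by 0.55 (SE 0.13) and the phospholipase PLAAT4 by 0.72 (SE 0.18).

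No member passed in the lists that follow, and each value is the mean of both forms minus vector on the log2 scale. Among 40 genes of DNA replication and mitosis (median 0.03), CCND2 differed by 0.47 and MCM6 by 0.21. Among 26 of cholesterol and lipid metabolism (median -0.01), the endothelial lipase LIPG differed by 0.93 (adjusted p = 0.0531) and the fatty acid synthase FASN by -0.28. Among 31 of the unfolded protein and integrated stress response (median -0.04), PHGDH differed by 0.28 and HSPA1B by -0.14, and among 21 NRF2 targets (median -0.02) AKR1C2 by -0.44 and GSR by -0.25. For 23 YAP and TEAD targets (median 0.06) NT5E differed by 0.22 and ASAP1 by 0.15, and for 33 WNT and Notch genes (median 0.04) APCDD1L by 0.84 and NOTCH2 by 0.21. For 19 complement and coagulation genes (median -0.02) C4BPB differed by -0.53 and CFB by 0.25, and for 14 pregnancy-specific glycoproteins and CEACAMs (median -0.07), a family of close paralogs, PSG3 by -0.29 and PSG6 by -0.19. Of 30 cancer-testis genes (median -0.05) 7 were lower and 2 higher at an unadjusted p under 0.05 (1.87% and 2.64% of all genes), with a median of -0.25 over the 15 above background on at least 3 arrays, FAM133A at -0.52 and MAGEA12 at -0.36. Some of these means joined unlike forms. In RAI2 and RAI2-4A cells respectively, CCND2 differed from vector by 0.97 and -0.03, and APCDD1L by 1.41 and 0.27. PSG6 differed by -0.71 and 0.34, and MAGEA12 by -0.80 and 0.07. For these genes the forms also differed from each other (limma, adjusted p = 0.0341, 0.0203, 0.00382 and 0.0203 in that order). Ribosomal proteins (26 genes, median -0.00, RPL30 0.11, RPS18 -0.12) and housekeeping genes (16 genes, median -0.02, TBP 0.20, ACTB -0.08) held no call.

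Markers of the line and of other cells gave the following. Of the 9 markers taken as high in this line 1 rose (TGFBI), and their median was 0.06. Of the 8 taken as low none passed (median 0.02), with KRT19 at -0.25 and EPCAM at 0.12. Neither the 6 fibroblast markers (median 0.05, COL3A1 -0.29, LUM 0.14), nor the 4 endothelial markers (median 0.01, PECAM1 -0.25, KDR -0.04), nor the 7 packaging cell markers (median 0.00, CDH2 -0.16, NEFL -0.02) held a call.

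Without the 3 arrays that stood apart, 37 genes passed (0.185%), 28 higher and 9 lower, and all 11 were among them, with a highest adjusted p of 0.00796. These arrays were picked for their residuals, so leaving them out lowers the spread by construction. The 26 further genes were 20 higher and 6 lower. They included the class II chain HLA-DRA (1.19, SE 0.18), HLA-DPA1 (0.82, SE 0.13), HLA-B (0.72, SE 0.12), the death receptor ligand TNFSF10 (0.96, SE 0.19), LIPG (1.05, SE 0.12), SAA1 (0.90, SE 0.14), IL24 (0.66, SE 0.13), MX1 (0.73, SE 0.11), THBS1 (0.66, SE 0.12) and the retinoid-responsive PLAAT4 (0.90, SE 0.13), all in log2 units. Lower were AGR2 (-0.55, SE 0.11), the inhibin subunit INHBB (-0.64, SE 0.13), the complement regulator subunit C4BPB (-0.74, SE 0.10), FAM133A (-0.64, SE 0.11), the activin antagonist FST (-0.57, SE 0.11) and TMEM163, which was not above background on any RAI2 array. In 1 of the 26, LYPD5, the forms lay on opposite sides of vector.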

How the data were processed

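The deposited value table holds normalized probe intensity values on a linear scale, 1 column for each of the 9 arrays, with BeadStudio and limma as the tools listed per the submitters' processing notes (versions and normalization are not given in the sources used here). The array medians were 98.5 to 99.5, so no further normalization was made. A further 18 columns (9 signals and 9 detection p) could not be tied to individual samples and stayed out. Background was corrected per array with normexp (offset 50) and log2 was taken. The 3 probes lacking a value were dropped. A probe was above background when it exceeded an array's mode by 1.645 SD. A model with 3 groups (6 residual degrees of freedom) was fitted to all 30111 probes with 1 gene symbol with limma 3.58.1 (eBayes with trend) in R 4.3.3. The contrasts were the mean of both forms minus vector, each form minus vector, and RAI2 minus RAI2-4A, two-sided, with Benjamini-Hochberg adjustment over probes. Probe symbols came from the platform annotation, and 30072 probes were found in RefSeq. The fit was run on simulated data with independent noise on each array. The arrays here have correlated residuals, which that run does not cover. Named were RAI2, every gene past the threshold without overlap, and per list the members past it or, with none, the 2 of lowest p among those above background on at least 3 arrays; a few other members were named after their values were seen. The 36 lists hold 831 genes, 780 of them on the array. Members, lists and alternatives were chosen with earlier results of these data known. Precision is limited by the number of arrays.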

Additional observations from a re-analysis of the deposited data

Results flagged for a closer look

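Among genes past the threshold for both forms against vector, 4 also differed between the forms in a direct test. RAI2 minus RAI2-4A was 1.85 log2 units for DEFB103A (SE 0.16, limma, adjusted p = 2.02e-04), 1.15 for IGSF3 (SE 0.13, adjusted p = 0.00248), 0.91 for LRIG1 (SE 0.16, adjusted p = 0.0477) and -0.85 for RAI2 (SE 0.12, adjusted p = 0.0104). LYPD5 passed for both forms on its probe ILMN_2322597 although RAI2 minus RAI2-4A was -3.04 there (SE 0.20, adjusted p = 2.36e-05) and the RAI2 arrays overlapped vector.

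Outside the probes with a gene symbol, 17209 probes carried several symbols or none. With these in the fit (47320 probes), 1 of them passed, ILMN_1660067, with a difference of 0.95 log2 units for both forms against vector (SE 0.14, limma, adjusted p = 0.0238). It read 712, 534 and 581.5 on the RAI2 arrays, 323, 356 and 359 on the RAI2-4A arrays, and 203, 287 and 260.0 on the vector arrays, without overlap between the forms and vector. The probe is not named here.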

How the results depend on the processing

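The count of 11 genes for both forms against vector became 3 with both forms as 1 group, 6 with only probes above background on all 9 arrays (fewer probes were tested), 19 with the filter, brightest kept probe and no trend, 23 with the brightest probe per gene, 27 with robust eBayes, 19 with array weights and 37 without the 3 arrays that stood apart; leaving out 1 array gave 4 to 18. It was 11 to 15 under the other settings except the replicate block, which gave 9 and lost SERPINA1 and NCK2 (adjusted p = 0.0838 and 0.119). Replicate numbers were not taken as pairing, since only 5 of 9 same-numbered pairs correlated above 0.1 (-0.43 to 0.43). Between RAI2 and RAI2-4A the same-numbered pairs correlated at 0.31, 0.43 and 0.18. Those of vector with either form ranged from -0.43 to 0.23. The count of 33 between the forms became 51 with robust eBayes, 55 without the 3 arrays and 13 to 51 leaving out 1 array, and 25 with the replicate block. SERPINA1 and NCK2 were also lost when probes of a gene were averaged (adjusted p = 0.416 and 0.896). Over the 11 called genes, 227 refits kept the call, 43 ended it and 0 changed direction. Among uncalled named genes 8 values reversed: GSR (0.021) and KDR (0.14) without the 3 arrays, KDR with array weights (0.028) and without RAI2 replicate 2 or vector replicate 1 (-0.11 to 0.069 leaving out 1 array), and NEFL without RAI2 replicate 3, vector replicate 1 or vector replicate 2 (-0.11 to 0.032). The cause of these shifts was not tested.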

Other observations

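The genes that came next in order of p, chosen after their values were seen, were LCP1, SORCS2 and LIPG. The sorting receptor SORCS2 read 136, 140.1 and 134 on the RAI2 arrays, 111, 104 and 127.5 on the RAI2-4A arrays, and 85.9, 90.4 and 88.3 on the vector arrays, on which it was not above background. On background-corrected values it was at least 1.27-fold higher in both forms together (limma, adjusted p = 0.0518). The bound was 1.43-fold in RAI2 cells and 1.13-fold in RAI2-4A cells. LIPG read 242, 245 and 225 on the RAI2 arrays, 229, 138 and 193 on the RAI2-4A arrays, and 121, 118 and 119.8 on the vector arrays. The forms lay above vector on every array, and RAI2-4A replicate 2 was closest to it. The transcription factor TFAP2C read 312.5, 275 and 266 on the RAI2 arrays, 254, 211 and 243 on the RAI2-4A arrays, and 149.8, 195 and 164 on the vector arrays, a difference of 0.69 log2 units (SE 0.12, limma, adjusted p = 0.106). TMEM163, which encodes a zinc transporter of vesicles, read 99.3, 97.6 and 85.8 on the RAI2 arrays, 108, 104 and 82.0 on the RAI2-4A arrays, and 133, 148 and 140.0 on the vector arrays. It was above background on 0 RAI2 arrays, 2 RAI2-4A arrays and 3 vector arrays, so no size is given for its difference (limma, adjusted p = 0.106).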
